A study of Glycine max with 4 samples.

Results

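The sites described here are the places on soybean chromosome 13 where the transcription factor GLYMA.13G317000 was found by chromatin immunoprecipitation followed by sequencing (ChIP-seq) in both replicates. Peaks of the 2 deposited peak lists that overlapped by at least 1 bp were joined into regions, and a region was kept as shared when it held peaks of both lists. On chromosome 13 this gave 2079 shared regions, out of 28903 in the whole series, of which 26666 lay on the other 19 chromosomes and 158 on unplaced scaffolds. The tissue was the embryo of cultivar Williams 82 at the early maturation stage, dissected from seeds of greenhouse plants and crosslinked with formaldehyde. The series holds 4 libraries: 2 ChIP libraries made with an antibody against a peptide of GLYMA.13G317000, and 2 input libraries of chromatin taken before immunoprecipitation. All embryos were of 1 genotype and 1 stage, and the labels name no line without the protein, so other proteins that the antibody may bind cannot be told apart from it. The labels call the replicates biological and do not say how many embryos or plants went into each.

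The peaks are named for BZIP67, a basic leucine zipper factor. Proteins of that class bind DNA as dimers through a basic region, typically at short elements with an ACGT core, and in seeds members of the class act together with other regulators on genes for storage proteins and other products of maturation. Soybean chromosomes commonly have gene-rich arms and a repeat-rich, gene-poor stretch around the centromere. Genes and sequences at the sites were not analysed here, because the gene table at hand belongs to another assembly and no genome of the files' build was used. Positions are 1-based and as in the deposited lists, and the genome build of those lists is not stated in any source used here.

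Each site is described by values that the authors' files give for each peak within 1 library. The fold is a ratio, the ChIP signal where the peak is highest (its summit) over a local background, through which the input enters. The pileup, which counts the ChIP fragments over the summit, and the local background, in the same unit, were worked back from fold and −log10 p as deposited. On chromosome 13 pileups ran from 23 to 400 fragments in replicate 1 and from 20 to 392 in replicate 2, and no read totals were known. With 1 condition and 2 ChIP libraries there was no test between groups, so chromosome 13 is set beside the other 19 chromosomes by value and rank, and errors are SDs over the 2 replicates.

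Chromosome 13 carried the most binding sites of any chromosome, and they were placed differently along it. Replicate 1 had 3382 peaks there and replicate 2 had 2162, each the highest count among the 20 chromosomes, although chromosome 13, at 45.8 Mb, was the 13th in length. Shared regions numbered 45.4 per Mb, against 29.5 per Mb over the other 19 chromosomes together and 41.4 per Mb on chromosome 11, the next in order. The outer 40% of the chromosome, 20% at each end, held 33.4% of its shared regions (Wilson 95% interval 31.4 to 35.5%). On each of the other 19 chromosomes this share was at least 59.4%, the value of chromosome 8, and it reached 85.6% on chromosome 4. Both positions in the order, first by density and last by outer share, were the same in replicate 1 alone and in replicate 2 alone. In replicate 1 alone the density was 73.8 peaks per Mb and the outer share 34.2%, and in replicate 2 alone these were 47.2 peaks per Mb and 33.3%.

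**Figure D1:**
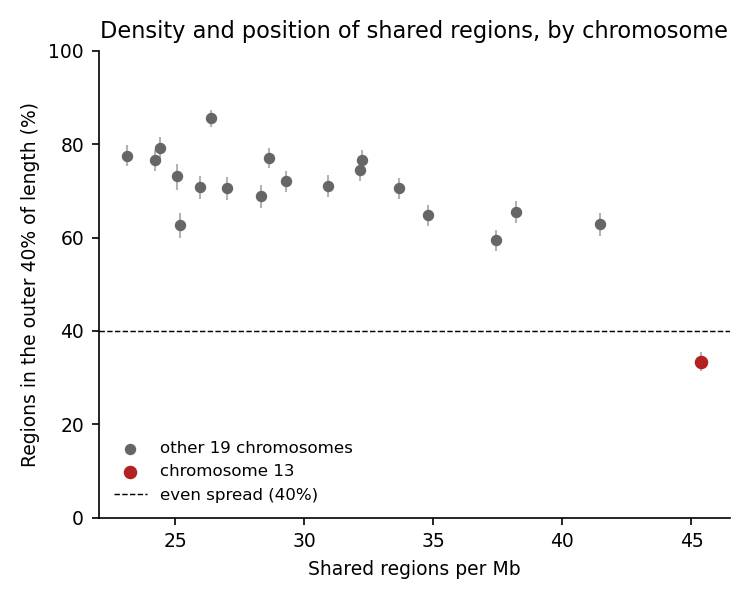
Shared regions per Mb (x axis) and the percent of shared regions in the outer 40% of chromosome length (y axis), 1 point per chromosome with Wilson 95% intervals that cover counting error only. Chromosome 13, in red, lies at 45.4 per Mb and 33.4%, below the dashed line of an even spread, while the other 19 chromosomes lie at 59.4% or more.

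The number of regions by decile of chromosome length shows a sparse start and a dense remainder. From the start, successive deciles held 31, 4, 73, 178, 283, 259, 232, 359, 339 and 321 shared regions. The single step that best split the counts of 1 Mb bins into 2 constant levels, by Poisson likelihood, lay at 14 Mb. The 14 Mb before it held 116 shared regions, 8.29 per Mb, and the 31.8 Mb after it held 1963, 61.7 per Mb, a ratio of 7.45. The sparse start thus took 30.6% of the length and 5.58% of the regions. Of its fixed windows of 100 kb, 87 of 140 had no shared region, against 3 of 319 in the remainder. The step was fitted to these same regions, which favours a large contrast between both sides. The other chromosomes were not split in this way. Over the whole chromosome 19.6% of windows were empty, the lowest share of the 20 chromosomes, where the others had between 24.5 and 41.4%.

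**Figure D2:**
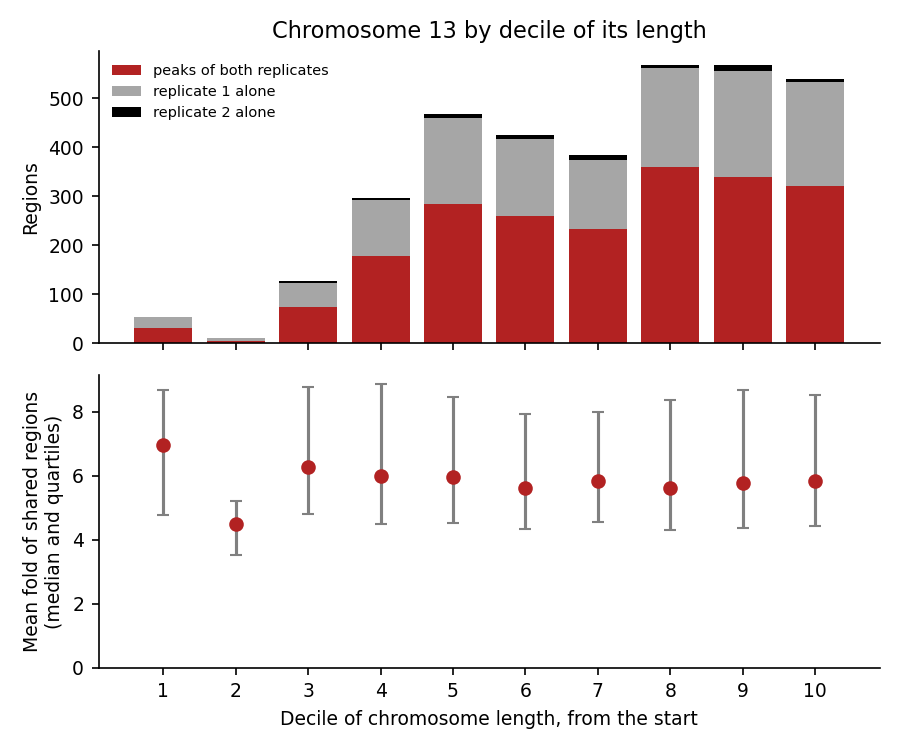
Chromosome 13 in deciles of its length (x axis): the upper panel stacks regions with peaks of both replicates, of replicate 1 alone and of replicate 2 alone, and the lower panel gives the mean fold of shared regions as the median with quartiles. Shared regions number 31, 4 and 73 in the first deciles and at least 178 in each later one, while the medians of the fold lie between 4.50, in the decile with 4 regions, and 6.95.

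The sparse start was itself uneven. The first 3 Mb held 31 shared regions, the next 7 Mb held 7, and the 4 Mb from 10 to 14 Mb held 78. In the 1 Mb bins from 3 to 4 Mb, from 6 to 7 Mb and from 8 to 9 Mb there was no shared region. Beyond 14 Mb the density averaged over long stretches rose from each to the next, although the counts of single bins also fell in places. It was 35.8 per Mb from 14 to 20 Mb and 67.7 per Mb from 20 Mb to the end, where none of the 259 windows of 100 kb was empty. Within that last stretch it was 61.9 per Mb up to 34 Mb and 74.6 per Mb beyond. These bounds were drawn after the counts were seen. The fullest bin, from 34 to 35 Mb, held 97 shared regions, and the emptiest complete bin beyond 14 Mb, from 18 to 19 Mb, held 20. Counted from 13 Mb, 33 successive bins, the last of them incomplete, each held at least 20 shared regions. The longest such run on another chromosome was 24 bins, on chromosome 8. The limit of 20 equals the count of the emptiest bin of the run on chromosome 13, so a higher limit would have split that run.

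The sparsest stretch of each other chromosome lay further from its start. The sparsest 7 Mb of chromosome 13, in steps of 1 Mb, ran from 3 to 10 Mb with 7 regions, and its centre lay at 14.2% of the length. The sparsest 7 Mb of the others held between 8 regions, on chromosome 10, and 43, on chromosome 11, with centres between 29.1 and 70.6% of the length. The stretch length was chosen on chromosome 13, which favours a low count there. On chromosome 13, 31 shared regions lay before this stretch and 2041 after it. On the other chromosomes the side with fewer regions had between 16.6 and 48.8% of those outside the stretch. The side before it, 3 Mb long, had 10.3 regions per Mb on chromosome 13, below the lowest value of the other chromosomes, 15.6 on chromosome 20. The densest 25 Mb of chromosome 13, from 20 to 45 Mb, held 1696 regions, 67.8 per Mb, against at most 54.8 per Mb on chromosome 6. This length is close to the 25.8 Mb from 20 Mb to the end of chromosome 13, which favours a high density there. By its fullest 1 Mb bin, with 97 regions, chromosome 13 ranked only 4th, and the highest count was 109, on chromosome 6.

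**Figure D3:**
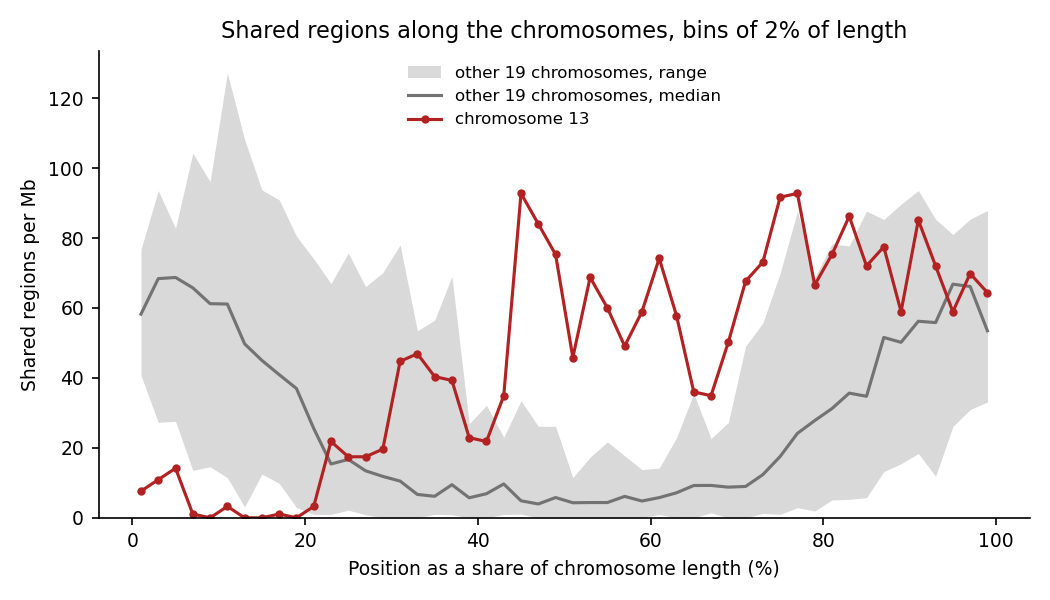
Shared regions per Mb (y axis) in bins of 2% of chromosome length (x axis) for chromosome 13 (red) and for the other 19 chromosomes (grey line, median; grey area, lowest to highest). Chromosome 13 lies below all others in the 10 bins of the first 20% and above all others in 19 of the 50 bins, which fall between 42 and 84% of the length.

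The fold of shared regions changed little where the density changed. The mean fold of both replicates had a median of 6.19 in the sparse start (quartiles 4.60 and 8.49, 116 regions) and 5.80 in the remainder (4.41 and 8.38, 1963 regions). By replicate, the medians were 6.92 and 5.18 in the start and 6.50 and 5.13 in the remainder, so the quartile ranges of both stretches overlapped widely. Median pileups in replicates 1 and 2 were 83 and 48.5 fragments in the start and 74 and 46 in the remainder. Over all peaks of a list, shared or not, the start was the lower of the stretches in replicate 1, at 4.72 against 4.83, and the higher in replicate 2, at 5.10 against 5.02. Over the whole series the strongest decile of shared regions, with a mean fold of at least 12.02, is 10.0% of them. It took in 12 of the 116 regions of the sparse start (10.3%, Wilson interval 6.02 to 17.2%), 201 of 1963 in the remainder (10.2%, 8.98 to 11.7%) and 10.2% of chromosome 13 as a whole. The median of the mean fold was 5.81 on chromosome 13 and 5.75 over the other 19, and the median width was 434 against 435 bp. By these values chromosome 13 was at an end of the order of 20 chromosomes in the number and placing of its regions. It was inside the range of the others in their median fold and width, and neither was tested.

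Agreement between replicates was also close to that elsewhere. Of the 3382 replicate 1 peaks on chromosome 13, 2084 or 61.6% overlapped a replicate 2 peak, beside 61.3% in the whole series. Of the 2162 replicate 2 peaks, 97.3% overlapped a replicate 1 peak (96.5 to 97.9%), beside 96.8%. In the sparse start 116 of 201 replicate 1 peaks were found again, or 57.7% (50.8 to 64.3%), and in the remainder 61.9% (60.2 to 63.5%), and these intervals overlap. Recovery rose with fold. For replicate 1, 14.6% of chromosome 13 peaks with folds up to 3.39 were found in replicate 2, and 674 of 675 with folds above 8.29 were. For the other chromosomes the same classes gave 16.4% and 99.95%. Across the 2079 shared regions the Spearman correlation of fold was 0.844, and it was 0.831 over the other 19 chromosomes. The points are regions of the same 2 libraries, so the correlation is a description without a p-value. Fold was lower in replicate 2 in 1692 regions (81.4%), with a median ratio of 0.807.

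**Figure D4:**
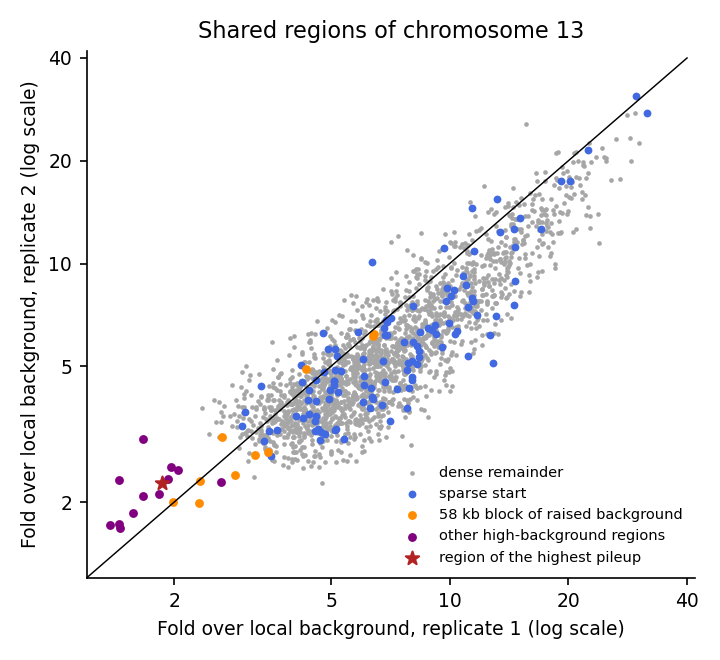
Fold over local background in replicate 1 (x axis) and replicate 2 (y axis), both on log scales, for the 2079 shared regions of chromosome 13, coloured by stretch or class, with a line of equality. Regions of the sparse start (blue) spread over the same range as those of the dense remainder (grey), and the 13 high-background regions outside the block (purple and star) gather at folds of 1.37 to 3.06, above the line in 12.

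The first and the second of the 10 strongest regions of the chromosome lay inside the sparse start. The strongest, from 13161691 to 13162501, reached a fold of 29.7 in replicate 1 and of 31.0 in replicate 2, a mean of 30.4 ± 0.945 (SD, n = 2). Its pileups were 305 fragments (exact Poisson 95% interval 272 to 341) and 255 (225 to 288), and its summits lay 2 bp apart. It stood alone, since the nearest shared summit was 217018 bp away. The region from 10767886 to 10768568 had folds of 31.6 and 27.6, a mean of 29.6 ± 2.82, with pileups of 293 and 215 fragments. In the whole series these regions ranked 15th and 16th by mean fold.

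The remaining 8 of the 10 lay in the dense remainder. The third, from 31605604 to 31606240, had folds of 29.6 and 27.6, and another of the 10, from 31638837 to 31639591, lay close by with folds of 26.3 and 23.1. The latter rested on 339 and 273 fragments, more in each replicate than any other of the 10. From 34803794 to 34804503 the folds were 28.1 and 27.2, the closest pair among the 10 with a mean of 27.6 ± 0.693. Replicates were further apart in the region from 34086305 to 34087136, with 30.3 and 22.6, and in the region from 38146617 to 38147307, with a mean of 24.4 ± 6.28. The other 3 were found from 23204161 to 23205024 with a mean fold of 26.0 ± 3.86, from 20718072 to 20718668 with 23.0 ± 1.78, and from 42709818 to 42710383 with 22.6 ± 3.21. The eleventh region had a mean of 22.6, so the limit of the 10 does not mark a gap in strength. Of the 10, 9 had the lower fold in replicate 2, and the median distance between the summits of both replicates was 9 bp. The 100 strongest shared regions of the series included 8 from chromosome 13, which holds 7.19% of all shared regions.

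Other sites of the start covered a wide range of strength. The first shared region of the chromosome, from 157635 to 158117, had folds of 8.25 and 5.74. The strongest region of the first 3 Mb, from 2558577 to 2559262, had 19.2 and 17.4, with pileups of 240 and 138 fragments. Just past the nearly empty stretch, the region from 10237699 to 10238219 reached 22.5 and 21.5, with pileups of 284 and 186. Setting aside sites of high background, the weakest region of the start lay from 1066721 to 1067516 with 3.52 and 2.73.

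The longest stretches without a shared region followed one another between 2.8 and 9.5 Mb. The longest, of 2.17 Mb, ran from the summit at 7359085 to the region from 9531113 to 9531433, which had folds of 5.08 and 4.54. The second, of 2.13 Mb, ended at that same summit and began at the region from 5232377 to 5232765, with folds of 5.13 and 4.88. The third, of 1.79 Mb, separated the region from 2840782 to 2841241, with folds of 6.95 and 6.74, from the region from 4627425 to 4627758, with 4.83 and 3.17. The next stretches were much shorter, at 0.434 Mb before 5232377 and 0.393 Mb after the strongest region of the chromosome. The first of these began at the region from 4798083 to 4798524, with folds of 7.80 and 3.78, and the second ended at the region from 13554857 to 13555190, with 6.02 and 3.94. Among all 20 chromosomes, where 57 stretches exceeded 1 Mb, the 3 long ones ranked 4th, 6th and 13th. The stretches were not without peaks of a single replicate. The longest held 1 peak of replicate 1, with a fold of 2.42, the second held 4 of replicate 1, with folds of 2.64 to 3.67, and 1 of replicate 2, and the third held 1 of replicate 1, with a fold of 3.88. Since depth is unknown, a stretch without peaks cannot be called unbound.

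The summit that divides the first and second stretches differs from the other sites. Within 100 kb of it there were 3 peaks in all. In replicate 1 a peak from 7358806 to 7359536 had a pileup of 400 fragments (exact Poisson interval 362 to 441), and in replicate 2 a peak from 7358798 to 7359547 had 392 (354 to 433). Both summits fell on position 7359085, and both pileups were the highest of the chromosome in their list, at 98.0 and 98.5% of the maximum of the whole list. Those maxima were 408 and 398 fragments, and the shortest peaks of the lists were 204 and 199 bp wide. The upper ends of both Poisson intervals lie above these maxima. Whether an upper limit on the pileup held these values down was not tested. The local background was as unusual, at 214 and 172 fragments, which is 30.2 and 27.4 times the lowest background of each list. The fold was therefore only 1.87 in replicate 1 and 2.27 in replicate 2. Replicate 2 had a further peak from 7358096 to 7358450, with a pileup of 134 fragments, a background of 72.0 and a fold of 1.85, and no partner in replicate 1. When peaks with a background above 30 fragments were left out, the first and second stretches became 1, of 4.30 Mb from 5232603 to 9531225 between mean summits. Left out in the same way elsewhere, the longest stretch of any other chromosome was 2.85 Mb, on chromosome 10.

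Peaks with a local background above 30 fragments were 25 of the 3382 replicate 1 peaks on chromosome 13 (0.739%, beside 0.472% in the whole series) and 14 of the 2162 replicate 2 peaks (0.648%, beside 1.33%). Of the 25 replicate 1 peaks, 12 lay in the single block of 58.4 kb described below, against 0 of the 14 replicate 2 peaks. The high-background peaks of both lists fell in 28 regions, 23 of them shared. Outside the 2 kinds described next were 3 regions with a peak of replicate 2 alone, the one beginning at 7358096 and those beginning at 37139340 and 44645091, with folds of 2.08 and 2.22. The first kind was 13 shared regions scattered from 7358798 to 38110405, the one at 7359085 included. A second region of this kind resembled it closely, from 16858742 to 16859478, with pileups of 399 and 390 fragments, backgrounds of 207 and 166, and folds of 1.92 and 2.34. These pileups too were close to the list maxima of 408 and 398. In these 13 regions folds lay between 1.37 and 3.06. Pileups were nearly the same in both replicates, as in the region from 24376699 to 24377168, with 220 and 219 fragments, or the region from 23904225 to 23904638, with 205 and 205. The median ratio of the replicate 2 to the replicate 1 pileup was 0.980, and it exceeded 0.9 in 12 of the 13. In the 2056 shared regions without a high background the median ratio was 0.636, with quartiles of 0.565 and 0.713, and it exceeded 0.9 in 60 (2.92%). Backgrounds had like ratios in both kinds of region, 0.803 and 0.781. The fold was higher in replicate 2 in 12 of the 13 regions against 18.1% of the 2056, which follows from the ratios of pileup and background. The 13 were not all separate places, since the region from 12108812 to 12109230 lay just before that from 12109282 to 12109798.

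**Figure D5:**
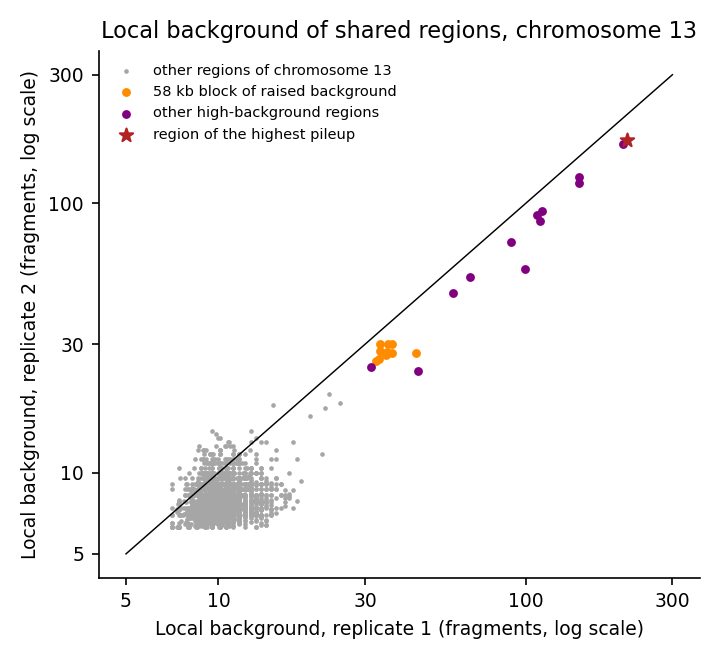
Local background in fragments in replicate 1 (x axis) and replicate 2 (y axis), both on log scales, for the 2079 shared regions of chromosome 13, with a line of equality. Most regions gather near the medians of 10.1 and 7.81 fragments, the 10 shared regions of the 58 kb block lie together at 32.6 to 44.0 and 26.0 to 29.9, and the region with its summits at 7359085 (star) lies at 214 and 172.

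The second kind was a single block of neighbouring sites. From 38798595 to 38857021, over 58.4 kb, 12 regions followed one another, 10 of them shared and 2 with a replicate 1 peak alone, and each of the 12 had a raised local background. It ranged from 31.8 to 44.0 fragments in replicate 1 and from 26.0 to 29.9 in replicate 2, which is why the block passed the limit of 30 in replicate 1 alone. In the 14 regions within 100 kb on either side the background was 7.69 to 14.9 and 7.02 to 11.3 fragments. The ranges did not overlap, but the block was picked by its high background, so a difference from the flanks was built in. The median was 3.54 times that of the flanks in replicate 1 and 3.39 times in replicate 2. Pileups in the block, with medians of 117 and 85 fragments over the 10 shared regions, were 1.24 and 1.31 times those of the 8 shared regions in the flanks. The folds, with medians of 3.03 and 2.78, were 0.372 and 0.442 times those of the flanks. A peak over a higher background needs a higher pileup to be called, and the fold is pileup over background. The ratios of pileup and fold are therefore no results separate from the raised background. The strongest region of the block, from 38855590 to 38856075, had pileups of 241 and 178 fragments and folds of 6.44 and 6.22. A run of at least 5 shared regions with a background above 25 fragments in both replicates within 50 kb was found in 3 other places, on chromosomes 1, 12 and 18. The block was noticed after the values were seen, and the source of its background was not tested.

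At a scale of 100 kb the dense remainder had few empty windows, while its fullest windows were not the fullest of the series. The densest 100 kb windows of chromosome 13 held 15 shared regions, and there were 4 of them, starting at 21800001, 34600001, 37500001 and 40100001. Among the 20 chromosomes 15 windows held more, up to 20. The strongest region of the first of the 4 lay from 21810763 to 21811392, with a mean fold of 13.7 ± 0.899. In the second it lay from 34671704 to 34672291, with 15.3 and 11.7. The third window had the strongest binding, with a median of 6.30 for the mean fold, and held the strongest region of the 4, from 37549524 to 37550115, with folds of 19.2 and 19.1. In the fourth it lay from 40135317 to 40136022, with 16.7 and 13.4, and this window had the most replicate 1 peaks of the 4, at 26. Windows with at least 10 shared regions made up 8.50% of those on chromosome 13 and 5.43% of those on the other chromosomes, with higher shares on 2 of them. The median distance between neighbouring shared summits was 10438 bp, within the range of the other chromosomes, and 271 of 2078 neighbours were under 2000 bp apart against 13.2% elsewhere.

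Sites seen in 1 replicate were weaker. The 1298 replicate 1 peaks of chromosome 13 without a partner reached a median fold of 3.48, on a median of 37 fragments. Those with a partner reached 6.52, on 74 fragments. The strongest replicate 1 peak without a partner, from 42967149 to 42967531, had a fold of 8.33 and a pileup of 84. The 59 replicate 2 peaks without a partner reached a median fold of 3.38, and the strongest, from 27515944 to 27516206, had 4.78 and a pileup of 36. Among shared regions the SD of the fold was highest, at 8.76, from 20935130 to 20935905, with folds of 23.9 and 11.5, although its summits were 4 bp apart. That region was singled out after its values were seen.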

How the data were processed

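The data were 2 peak lists, 1 per ChIP library, and the input entered only through the background in these lists. Bowtie 0.12.7 and MACS2 are named in the submitters' processing notes, without settings or genome build, and the peak names carry a q of 0.01. Per the deposited lists, each peak has a fold (ratio of ChIP to local background), a −log10 p, a −log10 q and a score. The deposited score is 10 times the −log10 q without its decimals in 100% of peaks. All are the authors' values, made within 1 library, and were used to describe and rank peaks.

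The whole-number pileup and the local background were solved from the deposited fold, taken with a pseudocount of 1, and the Poisson −log10 p, and met every peak within 0.001. Solving, overlap, merging and the step were checked on simulated data. A region took its values from its strongest peak in each list. Chromosome length was counted up to the last base of the last peak, and regions were placed by their midpoint. Wilson and Poisson intervals are at 95% and cover counting error only. Named regions were the 10 strongest, those at the ends of the sparse start, beside the 5 longest stretches or within 100 kb of the high-signal site, the strongest of the densest windows, and the strongest peak of each list without a partner. High-background regions, those of the raised-background block and the region of the highest SD were named after their values were seen. The members, rules and measures were chosen with earlier results of these data known. Python 3.11.15, numpy 2.4.6, pandas 2.3.3 and scipy 1.17.1 were used.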

Additional observations from a re-analysis of the deposited data

How the results depend on the processing

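Of 69 values recomputed under other settings, 45 stayed within the spread between replicates, the counting interval or 1.5 times the count, and 24 did not. Where a replicate was left out, that spread was itself taken from the 2 single-replicate values, so it is no independent yardstick. Chromosome 13 kept the highest density and the lowest outer share in the 6 alternatives for which all 20 chromosomes were recomputed. With a −log10 q of at least 10, the share of replicate 2 peaks found again became 98.6%, the median mean fold 6.95 and the Spearman correlation 0.810. That setting left 1500 shared regions on chromosome 13, at 32.7 per Mb, a fall that still counted as within 1.5 times. With a reciprocal overlap of 50%, the shares found again became 91.5% and 58.5%, and with equal list lengths 86.8% and 85.5%, for replicates 2 and 1. With bins of 0.5 Mb the step moved to 13.5 Mb and the density ratio to 8.82. Measured on pileup the correlation was 0.914, and measured on −log10 p it was 0.888. Without peaks of high background the longest stretch was 4.30 Mb, because that construction removes the summit at 7359085. Leaving out either replicate and taking all peaks of the other gave 2162 to 3382 sites, 47.2 to 73.8 per Mb, an outer share of 33.3 to 34.2%, a median fold of 4.82 to 5.02, a density ratio of 6.96 to 7.42, a longest stretch of 1.69 to 2.17 Mb, a fullest window of 15 to 26 sites, and median folds of 4.72 to 5.10 in the sparse start and 4.83 to 5.02 in the remainder, so that in replicate 1 alone the start was no longer the higher of both. The cause of these changes was not tested. The fullest window held 19 regions when windows were shifted by 50 kb, and 8 of the 10 strongest regions stayed among the 10 when ranked by −log10 p or by either replicate alone. No paired analysis was possible because the series has 1 condition and the inputs were not analysed here. The longest stretch without high-background peaks and the alternatives for the medians of both stretches, the single replicates behind the 10 strongest regions and the high-signal site were added after seeing the data.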
